A study of Mus musculus with 9 samples.

Results

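The highest and the lowest dose of 5-aza-2'-deoxycytidine (5-aza-dC) in the series, 10 µM and 0.2 µM, were compared for DNA methylation in Abl.1 cells. Abl.1 is a single clonal line of immortalised B cells from a female mouse of the 129S1/SvImJ x CAST/EiJ F1 background. All cells were collected on day 2, after a density centrifugation that kept live cells. The comparison holds 4 of the 9 libraries of the series, 2 from cells grown with 0.2 µM and 2 from cells grown with 10 µM of the drug. The other libraries, 2 from cells in medium with DMSO, the solvent of the drug, and 3 from cells with 2 µM, served for description and, for DMSO, to sort regions by their methylation without the drug. In the labels each replicate is a library preparation from 1 cell line, and no separate cultures are named, so the p-values measure the spread between these libraries, which may be technical.

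5-aza-dC is a cytidine analogue that is built into DNA while a cell copies it. DNA methyltransferases that act on the built-in base stay bound to it and are lost, so the new strand remains without its methyl groups, and methylation falls as cells go on dividing. Reduced representation bisulfite sequencing (RRBS) reads a part of the genome that is rich in CpG, the pair of bases that carries most methylation in mammalian cells. The methylation level of a region is the share of its reads at CpGs that were read as methylated. Reads were summed over tiles of 1 kb, and 90093 of the 441418 tiles listed had at least 10 reads in each of the 4 libraries. The libraries held 14121996 and 15932239 reads at CpGs at 0.2 µM and 13083587 and 8590777 at 10 µM, with a median of 3 to 5 reads at a CpG. A difference, called the gap below, is the mean of the 10 µM libraries minus the mean of the 0.2 µM libraries, in percentage points.

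Sequences upstream of 7 gene starts are shown, 3 with the widest gaps and 4 from gene lists that are described below. Each run is the 250 bases before the start, read 5′ to 3′ on the strand of the gene, from RefSeq promoter sequences of assembly GRCm38.p6. Capitals mark the CpGs. Zglp1, Sema4b and Duoxa1 had the 3 widest gaps among 278 such stretches with at least 20 reads in each of the 4 libraries and a level of 80% or above in DMSO. Mcts2, Ddx4, Sycp1 and Hoxa5 come from lists of imprinted, germline and homeobox genes, and all 7 were picked for display after their values were seen.
Zglp1: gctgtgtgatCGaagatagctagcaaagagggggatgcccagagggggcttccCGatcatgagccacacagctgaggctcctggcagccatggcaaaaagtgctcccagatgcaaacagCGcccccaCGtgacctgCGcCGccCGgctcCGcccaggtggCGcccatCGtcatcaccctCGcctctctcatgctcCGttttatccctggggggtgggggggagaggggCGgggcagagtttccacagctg
Sema4b: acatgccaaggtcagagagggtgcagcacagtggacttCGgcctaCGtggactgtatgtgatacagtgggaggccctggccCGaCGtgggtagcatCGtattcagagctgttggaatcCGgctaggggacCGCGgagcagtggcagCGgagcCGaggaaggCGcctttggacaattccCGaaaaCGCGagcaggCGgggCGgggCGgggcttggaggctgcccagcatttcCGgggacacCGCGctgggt
Duoxa1: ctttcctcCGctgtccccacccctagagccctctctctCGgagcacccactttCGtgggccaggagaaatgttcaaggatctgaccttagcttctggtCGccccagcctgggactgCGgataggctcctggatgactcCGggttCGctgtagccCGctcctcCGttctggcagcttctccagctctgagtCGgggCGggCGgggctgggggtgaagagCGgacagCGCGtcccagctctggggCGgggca
Mcts2: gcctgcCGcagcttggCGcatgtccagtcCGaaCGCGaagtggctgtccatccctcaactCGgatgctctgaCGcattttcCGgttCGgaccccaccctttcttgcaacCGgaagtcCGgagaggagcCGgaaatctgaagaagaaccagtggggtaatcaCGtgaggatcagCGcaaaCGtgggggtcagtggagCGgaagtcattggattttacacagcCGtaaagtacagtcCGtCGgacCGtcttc
Ddx4: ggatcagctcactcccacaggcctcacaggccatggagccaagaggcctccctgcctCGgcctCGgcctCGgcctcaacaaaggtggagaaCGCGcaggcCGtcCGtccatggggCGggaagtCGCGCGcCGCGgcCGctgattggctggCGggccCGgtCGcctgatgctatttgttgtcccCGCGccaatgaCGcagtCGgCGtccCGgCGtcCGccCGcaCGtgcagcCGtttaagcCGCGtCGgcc
Sycp1: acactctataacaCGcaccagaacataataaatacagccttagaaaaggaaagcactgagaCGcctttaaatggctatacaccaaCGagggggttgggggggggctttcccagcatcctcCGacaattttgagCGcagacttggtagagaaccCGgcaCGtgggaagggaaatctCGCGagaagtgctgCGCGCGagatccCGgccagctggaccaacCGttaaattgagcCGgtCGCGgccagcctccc
Hoxa5: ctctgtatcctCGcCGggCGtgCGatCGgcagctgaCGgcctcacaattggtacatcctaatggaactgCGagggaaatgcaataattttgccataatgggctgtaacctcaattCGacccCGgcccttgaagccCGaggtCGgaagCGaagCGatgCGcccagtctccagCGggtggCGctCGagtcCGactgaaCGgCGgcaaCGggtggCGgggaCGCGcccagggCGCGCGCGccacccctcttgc

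The Zglp1 stretch (chr9:21067094-21067343, minus strand) holds 13 CpGs and was methylated at 18.2% and 8.93% at 0.2 µM and at 94.0% and 95% at 10 µM, from 20 to 56 reads. The Sema4b stretch (chr7:80186620-80186869, plus strand), with 20 CpGs, stood at 20.6% and 31.7% against 87.8% and 97.9%. The Duoxa1 stretch (chr2:122313731-122313980, minus strand), with 16 CpGs, stood at 9.62% and 35.2% against 84.4% in both 10 µM libraries. In all 3 the high-dose libraries lay far above the low-dose ones, with gaps of 80.9, 66.7 and 62.0 points where the median over the 278 stretches was 11.5 points.

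The Ddx4 stretch (chr13:112652311-112652560, minus strand) holds 31 CpGs, a number reached by 5.19% of the 32851 promoter sequences of the table, whose median is 6 CpGs. Its level was 73.6% and 74.8% at 0.2 µM, against 78.1% and 77.3% at 10 µM, a gap of 3.50 points. The Sycp1 stretch (chr3:102936101-102936350, minus strand; 17 CpGs) stood at 75.9% and 67.6% against 61.9% and 66.2%, and the Hoxa5 stretch (chr6:52204588-52204837, minus strand; 28 CpGs) at 68.1% and 53.2% against 81.9% and 54.7%. In Hoxa5 the libraries of the doses overlapped, and in Sycp1 the low-dose libraries were the higher ones. The number of CpGs alone did not order these stretches. The Mcts2 stretch (chr2:152686898-152687147, plus strand), with 20 CpGs, stood at 41.0% and 45.9% against 90% and 92.1%, and Sema4b had as many CpGs. Of the promoter sequences, 17.9% hold at least 20 CpGs and 23.5% at least the 17 of Sycp1.

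Over the 90093 tiles the mean methylation level was 23.0% and 23.3% in the 0.2 µM libraries and 47.8% and 47.9% in the 10 µM libraries. The groups did not overlap, and the gap of 24.7 points was many times the spread within either dose (SD 0.171 and 0.0882, n = 2 each). An exact two-sided permutation test of 2 libraries against 2 cannot give less than p = 0.33, and it gave 0.33. In the 66788 tiles with 10 reads in every library of the series, the DMSO libraries had means of 53.3% and 53.8%, those at 0.2 µM 21.5% and 21.7%, and those at 10 µM 42.5% and 42.6%. The lowest dose thus stood at 40.3% of the DMSO level and the highest dose at 79.4%.

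The size of this mean depends on how tiles are weighted. Weighted by reads, which gives deeply read tiles more say, the gap was 9.42 points, and over single CpGs with at least 10 reads in each library it was 3.72 points. The direction was the same in both.

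**Figure D1:**
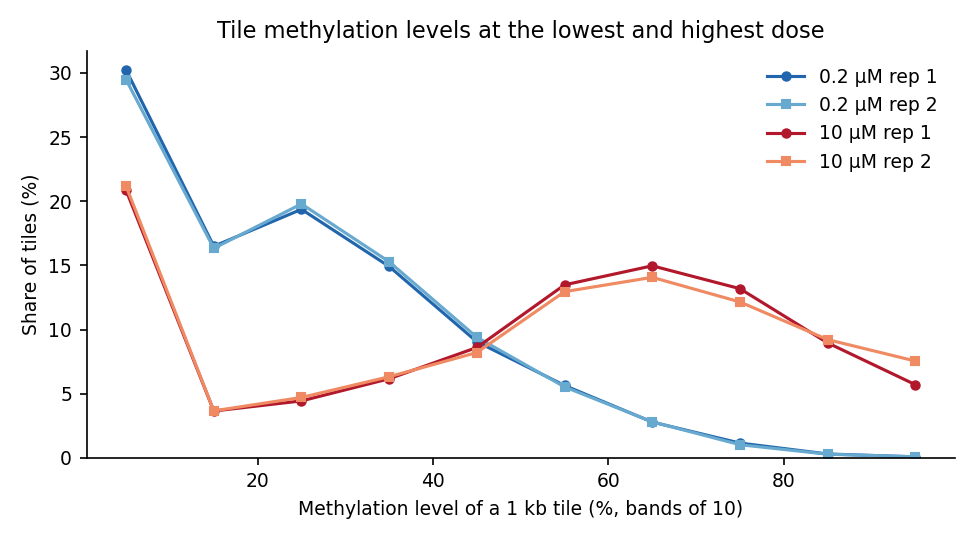
Share of the 90093 tiles (y axis, %) in each 10-point band of methylation level (x axis, %), 1 line per library. The 0.2 µM libraries have 30.2% and 29.5% of tiles in the lowest band and under 1% in the bands from 80% up, and the 10 µM libraries have 20.8% and 21.2% in the lowest band and a second peak between 60% and 70%.

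Most of the distribution of tile levels lay higher at 10 µM, while the lowest band stayed the fullest at both doses. At 0.2 µM 30.2% and 29.5% of tiles lay under 10%, and at 10 µM 20.8% and 21.2% did. The most filled band above that was 20% to 30% at 0.2 µM (19.4% and 19.8% of tiles) and 60% to 70% at 10 µM (15.0% and 14.1%). In the highest band, from 90% up, lay 0.0744% and 0.0866% of tiles at 0.2 µM against 5.70% and 7.54% at 10 µM.

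Tested tile by tile, 36798 tiles (40.8%) were higher at 10 µM and 67 (0.0744%) were lower, at an adjusted p under 0.05. The test models methylated reads out of all reads as binomial, with a spread between libraries that is moderated across tiles with limma, and the Benjamini-Hochberg adjustment runs over all tiles. At an unadjusted p under 0.05 the counts were 45234 higher and 125 lower, and regardless of any test the gap was above 0 in 79185 tiles and below 0 in 8992. These counts hang on how the spread was estimated. With the spread moderated from all tiles, as was first done, 0 tiles were called in either direction. The restriction to tiles with at least 1 fitted methylated and 1 fitted unmethylated read in each library, behind the counts given here, was made after that was seen. Without replicate 1 or without replicate 2 of the 0.2 µM group the test also called 0 tiles, while a fit of all 9 libraries called 26135 higher and 51 lower among 66788 tiles, and still 16000 and 16016 higher, with 27 and 21 lower, without the one or the other. Measured against the median change of all tiles, 1.21 on the log odds scale, the calls split into 1420 above and 1412 below it.

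In percentage points, the gap was widest in tiles that were highly methylated without the drug, which had the most to lose. The 33633 tiles at 80% or above in DMSO stood at 35.1% and 35.4% at 0.2 µM and at 69.6% and 69.9% at 10 µM, a gap of 34.5 points, and 59.7% of them were called higher. The 24774 tiles between 20% and 80% in DMSO had a gap of 25.4 points (23.0% and 23.3% against 48.6% in both). The 21330 tiles under 20% in DMSO had 1.73% and 1.76% against 3.83% and 3.78%, a gap of 2.05 points, and 3.01% of them were called. As shares of the DMSO level the order was not the same. The low and high dose stood at 39.4% and 76.3% of it in the highest class and at 41.3% and 84.6% in the middle one. In the lowest class, where the DMSO mean was only 3.18%, they stood at 53.9% and 116%.

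The gap narrowed with the number of CpGs in tiles at 80% or above in DMSO. A tile was counted by its CpG positions listed in any library. The gap was 33.5 points in tiles with 1 to 4 CpGs, 36.3 with 5 to 9, 36.7 with 10 to 14, 36.5 with 15 to 19 and 32.5 with 20 to 29. From there it fell to 25.6 points with 30 to 39 CpGs, 17.3 with 40 to 59 and 6.29 with 60 or more. It was the low dose that moved along this scale: its mean level was 31.4% in the sparsest tiles and 64.0% in the densest, while the high dose went from 64.8% to 70.3% and stayed between 64.8% and 73.5%. As a share of the DMSO level, 0.2 µM rose from 34.6% to 71.3% and 10 µM from 70.3% to 78.3%.

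**Figure D2:**
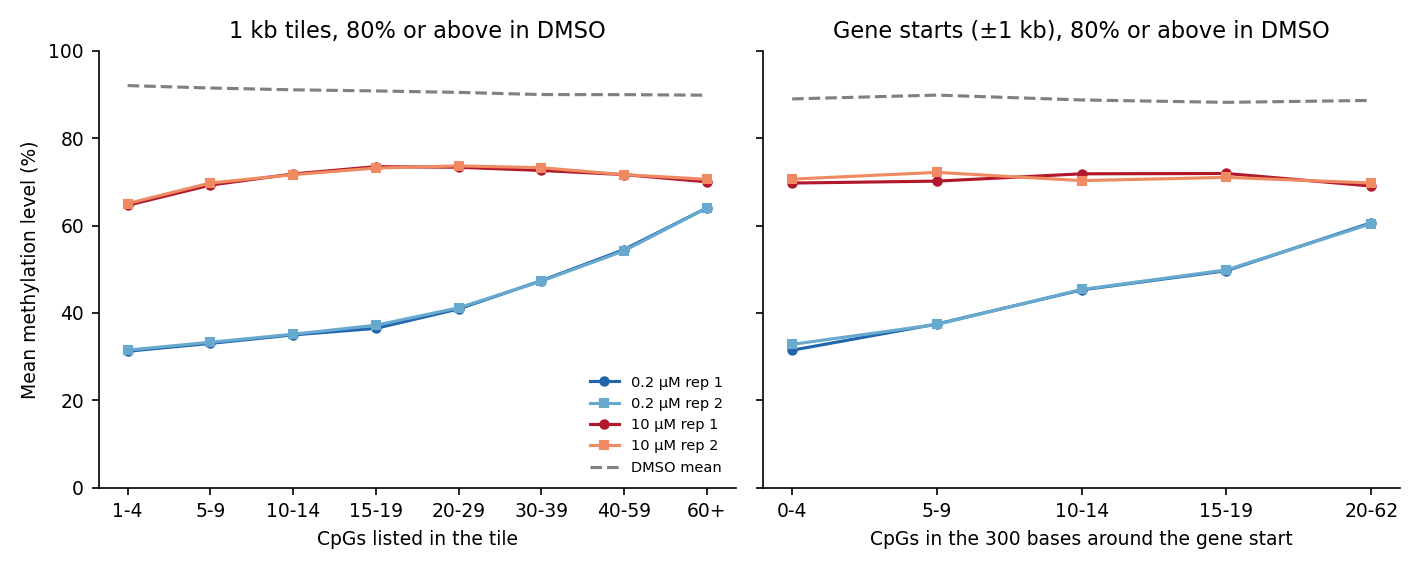
Mean methylation level (y axis, %) of regions at 80% or above in DMSO, by the CpGs listed in a 1 kb tile (left, x axis) and by the CpGs in the 300 bases around a gene start (right, x axis), 1 line per library and a dashed line for the DMSO mean. The blue 0.2 µM lines climb from 31.4% to 64.0% on the left and from 32.2% to 60.5% on the right, and the red 10 µM lines stay near 70%.

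The contrast was formed within each library as the mean of dense tiles (30 or more CpGs, 1886 tiles) minus that of sparse tiles (under 10 CpGs, 19523 tiles). It was 22.2 and 21.8 points at 0.2 µM, 3.90 and 3.86 points at 10 µM, and -1.78 and -1.50 points in DMSO. The difference of -18.1 points between the doses was larger than the spread between libraries, with the smallest p the exact permutation test can give (0.33). The contrast sits in the densest tiles: when the tiles were instead split into 4 equal classes by CpG number, the same contrast between the outer classes was -1.89 points.

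The 2 µM libraries add to this pattern. In the 13951 sparse tiles with 10 reads in all libraries, the levels rose with dose, from 32.9% ± 0.282 (SD, n = 2) at 0.2 µM to 48.8% ± 0.571 (n = 3) at 2 µM and 67.3% ± 0.326 (n = 2) at 10 µM. In the 562 tiles with 60 or more CpGs, 2 µM was the lowest dose at 55.0%, 55.7% and 56.4%, below the 64.0% of both 0.2 µM libraries and the 70.0% and 70.6% at 10 µM. The difference of -8.31 points between 2 µM and 0.2 µM had the smallest p that an exact permutation test of 3 against 2 allows, 0.1. All 2 µM libraries lay below all libraries of both other doses in 49.8% of these tiles, against 1.86% of the sparse tiles.

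Gene starts gave the same order when CpGs were counted in the RefSeq sequence, which no library can affect. Windows of 1 kb to each side of the start were used for protein-coding genes, and 987 windows stood at 80% or above in DMSO. With 0 to 4 CpGs in the 300 bases around the start (134 windows) the levels were 31.5% and 32.8% against 69.7% and 70.6%, a gap of 38.0 points. The gap was 33.7 points with 5 to 9 CpGs, 25.7 with 10 to 14 and 21.7 with 15 to 19. With 20 to 62 CpGs (311 windows) it was 8.85 points, from 60.7% and 60.4% to 69.0% and 69.7%. Over all 11023 windows tested, 787 (7.14%) were higher at 10 µM and 0 (0%) were lower, with 6 lower at an unadjusted p under 0.05. The limma test on levels called 365 higher and 1 lower. Leaving out 1 library gave 366 to 1234 higher and 0 to 7 lower, and without the scaling of reads it was 1936 and 8. With the spread moderated from all windows, or with the replicate number as a block, 0 windows were called higher. Of the windows called higher, 279 were at 80% or above in DMSO, 379 between 20% and 80% and 90 under 20%. The median gap over all windows was 0.46 points, and 7940 of them were under 20% in DMSO.

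Position along genes went with the gap as well. Among tiles at 80% or above in DMSO, those within 1 kb of a gene start had a gap of 26.2 points (2137 tiles), those at 1 to 5 kb 39.6 points (4318 tiles), those deeper inside genes 37.0 points (17678 tiles) and those outside genes 29.1 points (8484 tiles). In the low dose these classes stood at 43.6%, 31.6%, 33.3% and 39%, and in the high dose at 69.9%, 71.2%, 70.2% and 68.2%. The class around starts split by density: with under 10 CpGs its gap was 34.7 points, close to the other classes, and with 30 or more CpGs it was 9.70 points. Outside genes, dense tiles had a gap of 17.0 points and sparse tiles one of 30.9 points.

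By chromosome, tiles at 80% or above in DMSO had gaps from 25.6 points on the X to 40.7 points on chromosome 11. On the X (1053 tiles) the libraries at 0.2 µM stood at 42.2% and 42.3% and those at 10 µM at 68.0% and 67.8%, and on the autosomes 34.9% and 35.2% against 69.7% and 69.9%. The X minus autosome difference was 7.33 and 7.15 points at 0.2 µM and -1.66 and -2.15 points at 10 µM, so the doses differed by -9.14 points (exact permutation p = 0.33, the smallest possible). The X tiles had a median of 10 CpGs against 8, a DMSO level of 88.8% against 91.3%, and relatively more reads at 10 µM (median log2 ratio 0.08 against -0.12). The part of these in the X difference was not tested.

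Read depth moved with the gap. For each tile the reads at 10 µM were divided by those at 0.2 µM, each relative to its total, and the tiles were split into 10 equal classes by this ratio. In the class with the fewest reads at 10 µM, the tiles at 80% or above in DMSO had a gap of 44.2 points, and in the class with the most, 23.6 points. Across 5054 such tiles with 50 or more reads in each library the correlation of gap with the log2 ratio was -0.467. This describes tiles, which are not independent, and both quantities come from the same reads. Its part in the gap was not tested. The dependence on CpG density was present at both ends of the ratio: dense tiles had a gap of 37.8 points in the class with the fewest reads and 6.70 in that with the most, against 44.4 and 25.7 points in sparse tiles. Within the central 40% of tiles by this ratio, the density contrast between the doses was -19.1 points.

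**Figure D3:**
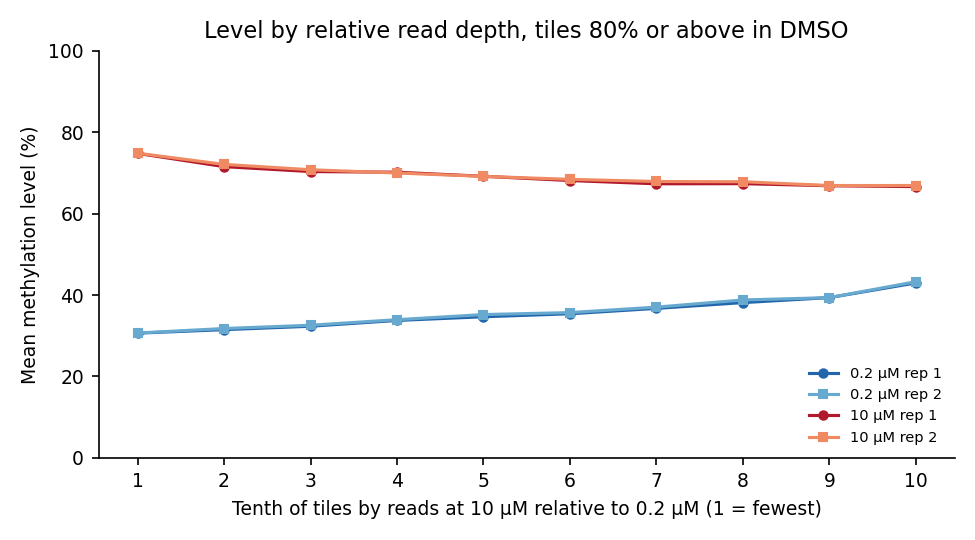
Mean methylation level (y axis, %) of tiles at 80% or above in DMSO, in 10 equal classes of all tiles by the reads at 10 µM relative to 0.2 µM (x axis, fewest first), 1 line per library. The 0.2 µM lines rise from 30.6% to 43.0% and 43.3%, and the 10 µM lines fall from 74.8% to 66.6% and 66.9%.

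Gaps differed between tiles by more than the libraries' disagreement. In the 5054 tiles with 50 or more reads in each library, the gap had an SD of 18.6 points over tiles, and the error from replicate differences had an SD of 7.94 points. In 449 of these tiles (8.88%) the gap was 0 or below, and in 527 (10.4%) it was 50 points or more.

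The 10 widest single-tile gaps lay in tiles that overlap a gene, as do 72.1% of all tiles. Gaps of this size are possible only in tiles with little methylation left at 0.2 µM. In Coro7, which encodes a coronin protein of the Golgi, a tile at chr16:4634001-4635000 stood at 14.5% and 13.0% at 0.2 µM and at 97.9% and 100% at 10 µM, from 34 to 115 reads. Its gap of 85.2 points (95% interval 74.0 to 96.3) had an adjusted p of 3.75e-05. In Smyd2, which encodes a lysine methyltransferase, a tile at chr1:189897001-189898000 stood at 16.8% and 7.06% against 97.5% and 96.7%. In both, the high-dose libraries were close to or above the pooled DMSO levels of 88.7% and 98.1%. Their levels at 2 µM were in between, at 60%, 69.9% and 64.6% for Coro7 and 51.2%, 54.1% and 64.8% for Smyd2.

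The 10 widest of the 12437 upward tiles with 30 reads in each library had gaps from 78.6 to 85.2 points. They include tiles in Prkcd (a protein kinase C; 5.00% and 19.2% against 88.2% and 100%), Klc1 (a kinesin light chain; 12.0% and 17.5% against 94.7% and 97.0%) and Mical3 (an enzyme that oxidises actin; 13.0% and 3.57% against 80% and 96.2%). The tiles at the starts of Gm48552 and Ccdc194 also belong to them. All 10 kept an adjusted p under 0.05 without either 10 µM library, and all 10 lost it without either 0.2 µM library in the fit of 4 libraries. In the fit of 9 libraries, where 9 of the 10 could be tested, all 9 kept it whichever of the 4 libraries was left out.

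**Figure D4:**
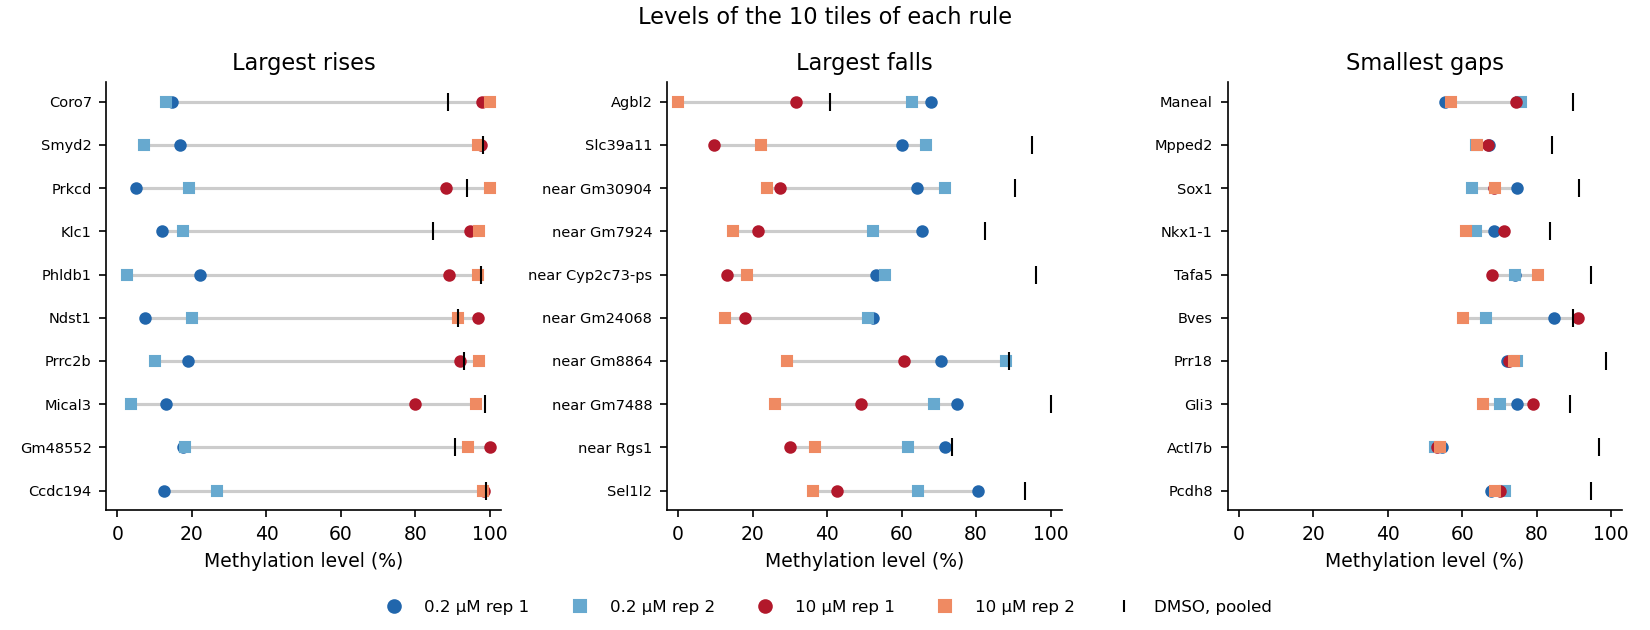
Methylation level (x axis, %) of the 10 tiles with the largest rise, the largest fall and the smallest gap (y axis, gene or nearest gene), with 1 point per library and a bar for pooled DMSO. In the rises the blue 0.2 µM points lie at 26.8% or below and the red 10 µM points at 80% or above, in the falls the order is turned, and in the smallest gaps the colours mix between 52.6% and 91.0%.

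At gene starts the widest gaps reached nearly the same size. The window of Gm48552, a predicted gene, stood at 17.6% and 17.7% against 100% and 92.2%, a gap of 78.4 points. That of Ccdc194, a coiled-coil protein gene, stood at 12.4% and 26.8% against 98.4% and 96.1%, a gap of 77.6 points. They were followed by Gpha2 (a glycoprotein hormone subunit) with 71.2 points and Apc2 (a relative of the Wnt pathway gene Apc) with 69.4 points. Gal3st1, an enzyme of sulfatide synthesis, had 8.51% and 30.9% against 79.6% and 87.2%. Efna1, an ephrin ligand, had 22.4% and 23.0% against 84.1% and 85.9%, with 20 CpGs in the 300 bases around its start. All 10 windows named by the rule kept an adjusted p under 0.05 without any 1 library, but 5 of the 10 lost it in the limma test on levels. All 10 lost it with the replicate number as a block (adjusted p up to 0.100) and with the spread moderated from all windows (up to 0.426).

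The narrowest gaps lay in CpG-rich tiles, with 25 to 130 CpGs. Of the 10, 8 were within 1 kb of a gene start, against 21.1% of all tiles outside chromosome 18. The rule asked for 100 reads in each library and 80% or above in DMSO, which 1628 tiles met. Such a minimum favours dense tiles, whose median depth was 226 and 166 reads at the doses against 37.5 and 26.0 in sparse ones. It also favours tiles within 1 kb of a start, with 232 and 174 reads against 50 and 34 over all tiles. The tile at the start of Tafa5, which encodes a secreted brain protein, held 130 CpGs and stood at 74.1% and 74.2% at 0.2 µM, against 67.9% and 80.3% at 10 µM, a gap of -0.042 points (95% interval -10.9 to 10.8). A tile in Pcdh8, a protocadherin, stood at 67.7% and 71.4% against 70.1% and 68.8%. A tile in Sox1, a neural transcription factor, stood at 74.6% and 62.5% against 68.4% and 68.7%, and one in Gli3, a Hedgehog pathway transcription factor, at 74.8% and 70.1% against 79.1% and 65.7%. A tile near the start of Actl7b, an actin-like gene of the testis, was lower in all 4 libraries, between 52.6% and 54.4%. In each the doses overlapped, and the intervals still allow differences of about 11 to 15 points either way. The pooled DMSO levels of the 10 were 83.5% to 98.7%, and all library values of both doses lay below them except 10 µM replicate 1 of Bves, a membrane protein gene, at 91.0% against 89.8%.

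Among gene starts, the narrowest gaps included those of Lrig3 (73.8% and 76.7% against 75.5% and 75.1%), the tyrosine kinase Fer (55.7% and 65.4% against 60.4% and 60.9%), Prdm16, a zinc finger regulator (66.5% and 65.9% against 64.9% and 66.9%), and the homeobox gene Gsx1 (56.6% and 60.8% against 64.4% and 53.8%).

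Of the 422 protein-coding genes with 15 or more tested tiles, every one had a mean gap above 0, from 11.3 to 46.2 points with a median of 28.9. The widest was Foxp4, a forkhead transcription factor (chr17:47867133-47924632), with 27.0% and 19.1% against 66.3% and 72.2% over 16 tiles, 14 of them called higher. Rptor, a subunit of the growth regulator mTORC1, followed with 46.0 points (26.7% and 26.9% against 74.2% and 71.3%), and Fto, an RNA demethylase, with 45.9 points (26.7% and 25.2% against 72.1% and 71.7%). Dnah17, an axonemal dynein, had 30 of 36 tiles called higher, and Celsr1, a cadherin of planar cell polarity, 18 of 20, against 40.8% of all tiles. The genes named here were picked for wide gaps over the same tiles, which favours such counts.

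The narrowest was Gnas, the imprinted gene of a G protein alpha subunit (chr2:174284320-174346744), with 35.5% and 35.7% against 48.9% and 44.9% over 15 tiles and a gap of 11.3 points. Its mean DMSO level was 49.9%, against 77.7% in Foxp4. Some others of the narrow end were well methylated in DMSO. Fat1, a giant cadherin, had 82.6% in DMSO, 48.9% and 44.4% at 0.2 µM, against 60.7% and 61.9% at 10 µM. Ajap1, a junction protein, had 82.5% in DMSO, 50.2% and 45.4% at 0.2 µM and 64.1% and 64.5% at 10 µM. The neural splicing factor Srrm4 (13.5 points), the orphan receptor Esrrg (14), the eye regulator Pax6 (15.4) and Hoxa3 (16.3) also belong to the narrow end. Their mean DMSO levels were 60.6%, 71.0%, 43.7% and 76.5%, that of Pax6 being below the level of Gnas. Among tiles of Esrrg at 80% or above in DMSO the gap was 6.42 points, and among those of Foxp4 it was 52.8 points.

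The 67 tiles lower at 10 µM make up 0.0744% of the tiles. Their median level was 66.6% at 0.2 µM and 24.4% at 10 µM, with a median gap of -33.4 points. In 66 of them the libraries of the doses did not overlap, which is likely in tiles picked by a test on these same libraries. In the means of single CpGs read in all 4 libraries, the gaps of these tiles, which were chosen for being lower, ran from -75.0 to -1.86 points with a median of -33.9, and 4 of the 67 shrank to under 50% of the tile's gap. A one-sided test for lower values, adjusted over all tiles, called 0 tiles. The limma test on levels called 91 tiles lower. In the fit of 4 libraries none was called without either 0.2 µM library.

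Reads moved with these tiles too. Of the 67, 56 had relatively more reads at 10 µM than at 0.2 µM, against 12590 of the 36798 tiles called higher, and the median log2 ratio of reads was 0.53 against -0.18. Its part in the result was not tested. Of the lower tiles 29 overlapped a gene (43.3%, against 72.1% of all tiles) and 9 lay within 1 kb of a gene start (13.4%, against 21.1%). On the X lay 7 (10.4%, against 3.29%), and 7 held 30 or more CpGs (10.4%, against 16.3%). Of the 56 with 20 or more DMSO reads, 39 were at 80% or above in DMSO (69.6%, against 42.2%), and 7 had a level at 0.2 µM at or above that of DMSO.

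The largest fall with 30 reads in each library was in Agbl2, which encodes an enzyme that trims glutamates from tubulin. The tile at chr2:90804001-90805000 stood at 67.9% and 62.7% at 0.2 µM and at 31.8% and 0% at 10 µM. The 0% rests on 50 reads, which would allow a share of up to 6% if they were independent. Reads of a tile in the same library are alike, so the true limit is likely higher. The gap of the tile was -49.4 points (95% interval -65.7 to -33.1, adjusted p = 0.000705). In the limma test on levels the adjusted p was 0.0780, and without 10 µM replicate 2, the library at 0%, the gap was -33.5 points (adjusted p = 0.0153). Without either 0.2 µM library it was not called in the fit of 4 libraries (adjusted p = 0.200 and 0.191). The DMSO libraries stood at 34.0% and 61.3%, apart from each other, and the 2 µM libraries at 48.9%, 56.3% and 48.8%. A tile in Slc39a11, a zinc transporter, stood at 60% and 66.7% against 9.68% and 22.2%, from 30 to 36 reads and 4 CpGs. A tile outside genes whose nearest gene is Rgs1, a regulator of G protein signalling, stood at 71.7% and 61.8% against 30% and 36.7%.

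Among lower tiles with many CpGs, 3 were picked after their values were seen. A tile at the start of Barx1, a homeobox gene, stood at 78.9% and 81.6% against 64.1% and 67.1% over 55 CpGs, a gap of -14.6 points (adjusted p = 0.0336). Grip1, a scaffold of glutamate receptors, stood at 75.6% and 72.5% against 60.2% and 54.7% at its start, and Tenm3, a teneurin adhesion protein, at 73.3% and 71.5% against 55.0% and 59% over 116 CpGs inside the gene. In each of these the high-dose libraries were below both low-dose ones. That is likely in tiles picked by a test on these same libraries, and the one-sided test for lower values called 0 tiles.

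Genes of the imprinted list held 2 of the lower tiles. Imprinting is the methylation of 1 parental copy, but many of these starts were methylated well beyond that in this line. Of the 14 tested starts, 7 stood at 80% or above in DMSO (median of the 14, 76.8%), against 987 of all 11023 windows. A tile of Grb10, a growth factor receptor adaptor, 920 bases from a start, stood at 78.5% and 78.7% against 54.0% and 56.5% (adjusted p = 0.0449), where DMSO had 86.2%. A tile of Mest stood at 33.8% and 26.2% against 2.38% and 10.0% (adjusted p = 0.0378), where DMSO had 1.67%. These are 2 of 62 imprinted gene tiles tested, where 0.0744% of all tiles were lower. A further lower tile, in Blcap, which is not on the list, overlaps the start window of the list member Nnat. The Blcap tile stood at 58.3% and 89.3% against 35% in both, with 100% in DMSO. The whole Nnat window stood at 56.6% and 74.5% against 67.8% and 71.5% and was not called. The one-sided test for lower values called 0 tiles. Of the 62, 11 (17.7%, against 40.8% of all tiles) were higher. At starts, 1 of 14 imprinted windows was called higher (against 7.14% of all windows), and the median gap was 10.5 points. The window called was that of Mcts2, at 42.0% and 48.4% against 87.3% and 89.1%, with 97.2% in DMSO. Zrsr1 had 32.0% and 29% against 41.5% and 53.6% (adjusted p = 0.0684), and Igf2r 58.1% and 65.3% against 74.8% and 70.5% (adjusted p = 0.485). In DMSO the Zrsr1 and Igf2r windows stood at 50.3% and 91.1%. Another 8 of the 22 list members had no tested window.

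**Figure D5:**
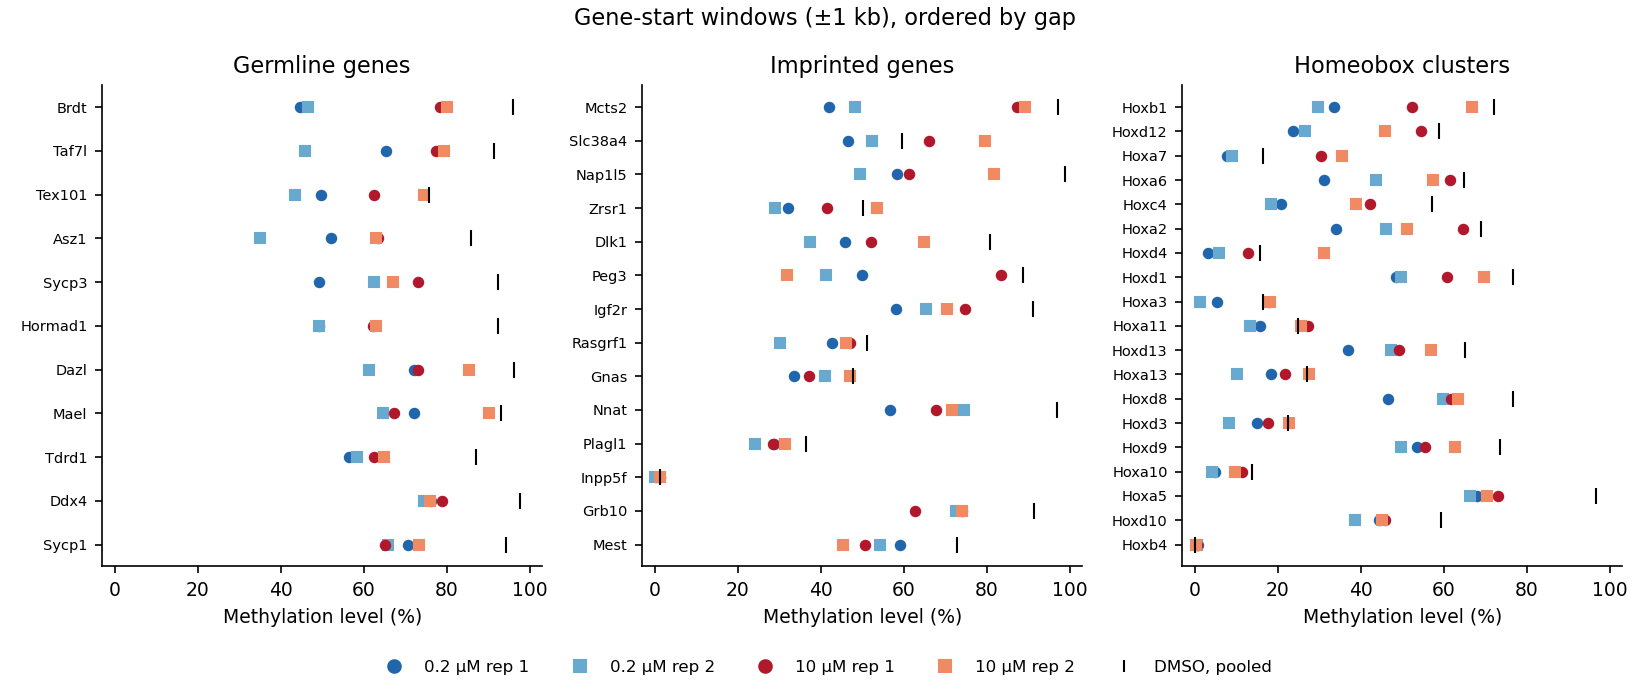
Methylation level (x axis, %) of gene-start windows of the germline, imprinted and homeobox lists (y axis, genes ordered by gap), with 1 point per library and a bar for pooled DMSO. In the germline list all points lie below the DMSO bars, the nearest being 10 µM replicate 2 of Tex101 at 74.5% against 75.6%, and blue and red points overlap in Mael, Ddx4 and Sycp1.

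Germline genes are kept silent by methylation of CpG-rich promoters in most body cells. Of the 15 members, 11 had a tested window, and 10 of the 11 were at 80% or above in DMSO, with none under 20%. None was called (0 of 11, against 7.14% of all windows), and the median gap was 13.4 points. Of all 987 windows at 80% or above in DMSO, 28.3% were called higher, and their median gap was 21.3 points. The germline windows held 15 to 38 CpGs in the 300 bases around the start. Among the 987, those with 15 to 19 such CpGs had a median gap of 19.2 points (37 of 146 called higher). Those with 20 to 62 had one of 5.80 points (32 of 311 called higher). The gaps ran from 1.04 points in Sycp1, a protein of paired meiotic chromosomes (70.7% and 65.8% against 65.2% and 73.3%), and 1.97 points in the RNA helicase Ddx4 (76.2% and 74.6% against 78.9% and 75.9%; 95% interval -11.1 to 15.0) to 33.5 points in Brdt, a testis bromodomain protein (44.7% and 46.7% against 78.3% and 80%; adjusted p = 0.154). At 2 µM Ddx4 stood at 36.5%, 63.7% and 49.7%, below both other doses.

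Of the 39 homeobox cluster genes 19 had a tested window, 2 of them called higher (against 7.14% of all windows): Hoxd12 (23.6% and 26.6% against 54.6% and 45.8%) and Hoxa11 (15.8% and 13.3% against 27.3% and 25.7%). The median gap was 12.0 points, from -0.25 in the unmethylated Hoxb4 to 27.8 in Hoxb1 (33.6% and 29.8% against 52.3% and 66.7%; adjusted p = 0.143). Hoxa5 was the one window at 80% or above in DMSO and stood at 68.0% and 66.3% against 73.1% and 70.5%. Neighbouring genes of a cluster share tiles, and over the 139 distinct tiles 57 (41.0%) were higher, as in all tiles. Of the 57 clustered protocadherins 43 had tested tiles but none had a tested window, and 25 of their 66 tiles (37.9%) were higher.

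In the B lineage list 7 of 16 members had a tested start, and 9 had none. Of these 7, 6 were under 20% in DMSO, as were 7940 of all 11023 windows. The library values of the 6 at 0.2 and 10 µM ran from 0% to 20%. The highest was 10 µM replicate 2 of Pax5, the factor that commits cells to the B lineage. At 2 µM the Pax5 window stood at 28% from 25 reads and at 92.3% from 13 reads, with 0 reads in the other library. Ebf1 and Ikzf1, transcription factors of B cell formation, lay under 2% in all 4 libraries. The other, Rag1 of the recombinase, stood at 44.9% in DMSO and at 2.44% and 10.0% against 14.3% and 44.4% (adjusted p = 0.251). None was called, and the median gap was 0. Of the T lineage markers, Bcl11b and Cd5 were at 84.6% and 70.3% in DMSO, and Gata3 and Tcf7 under 20%, with 0 of 4 called. Of the myeloid markers only Cebpa had a tested window (5.35% and 5.36% against 11.4% and 14.1%, called higher), and of the fibroblast markers Col1a2 and Pdgfra (0 of 2 called) were at 21.0% and 41.1% in DMSO. A low level at a start is not a measure of expression, so these values describe the line without settling its type. Over the whole B lineage genes 24 of 62 tiles (38.7%, against 40.8% of all tiles) were higher at 10 µM, 13 of them among the 20 tiles of Pax5.

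Genes that take up, activate or break down the drug had 1 of 10 windows called, against 7.14% of all windows. That was Slc29a1, a nucleoside transporter through which such analogues enter cells, with 18.3% and 18.3% against 46.2% and 79.2% (gap 44.3 points, 95% interval 20.4 to 68.3, adjusted p = 0.0408) from 24 to 82 reads, and 92.9% in DMSO. The start of Dck, the kinase that activates the drug, lay under 1% in all 4 libraries, and that of Cda, the deaminase that breaks it down, at 3.41% and 9.31% against 14.9% and 21.6% (adjusted p = 0.145). Of the DNA methylation machinery 2 of 10 windows were called (against 7.14% of all windows): Tet1 (10.1% and 10.8% against 26.3% and 26.4%) and Tet3 (19.7% and 11.0% against 33.5% and 34.7%), which oxidise methylated cytosine. The starts of Dnmt3a and Hells were under 1% in all 4 libraries. Among damage and cell cycle genes 0 of 14 windows were called by the same test. In DMSO 13 were under 20%, as were 7940 of all 11023 windows. The exception was Trp73, a relative of p53, at 31.7% and 23.3% against 41.0% and 42.0% (adjusted p = 0.130).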

How the data were processed

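Methylation was measured by RRBS in 9 libraries, of which the 2 at 0.2 µM and the 2 at 10 µM were compared. The authors deposited 1 table per library in which each CpG has its methylated reads over all reads as 1 text entry, a count pair that is classed as other, and a score from 0 to 1000, which in the deposited values is 1000 times the share of methylated reads, cut to a whole number, throughout. The score served only as that check. The build is mm10, per the submitters' processing notes. For aligner, caller and read filters the sources used here give nothing. PCR copies were not separated. The intervals carry the counting error and the spread between libraries, and the limit for a count of 0 carries the counting error of independent reads only.

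Reads of a CpG were summed in 1 kb tiles with at least 10 reads in each of the 4 libraries, and in windows of 1000 bases to each side of the first start of 17491 protein-coding genes in a RefSeq promoter table (GRCm38.p6, without chromosome 18). All 255824 listed CpGs inside those sequences fell on CG. Between 1 and 2 lines per library of unusual width and 18 to 68 lines at repeated positions were left out. Genes were named by overlap, else by the nearest gene.

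Each region was tested with a binomial model of the 4 libraries. Because reads of a tile in 1 library are alike, their number was scaled to an effective size in 5 coverage classes (correlation 0.0428 to 0.0124). The dispersion was moderated with limma 3.58.1 (squeezeVar, trend on coverage, not under 1; R 4.3.3), and the threshold was an adjusted p (Benjamini-Hochberg) of 0.05. The prior was taken from the 65792 tiles (4648 windows) with at least 1 fitted effective read of each kind in each library (prior degrees of freedom 18.5 and 11.6). That step was added after the real data had given 0 calls with a prior from all tiles, and the script was then tested on simulated data. Library means were compared with exact two-sided permutation tests.

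Tiles named had 30 or more reads in each library, an adjusted p under 0.05 and libraries that did not overlap, and were the 10 largest gaps each way. The smallest gaps came from tiles with 100 or more reads in each library at 80% or above in pooled DMSO (20 or more reads). Genes named had at least 15 tiles. Gene lists covered B lineage, drug uptake and breakdown, DNA methylation machinery, damage and cell cycle, germline, imprinted, homeobox cluster and clustered protocadherin genes, with markers of the T, myeloid and fibroblast lineages. The comparison, members and lists were chosen with earlier results of these data known. Samples of the same replicate number did not deviate together (r = -0.0045 over 90093 tiles), so no pairing was used.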

Additional observations from a re-analysis of the deposited data

How the results depend on the processing

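No result changed direction in any alternative run. The mean gap over tiles ranged from 3.72 to 28.3 points over its alternatives, and from 24.6 to 24.8 points when 1 library was left out. The density contrast ranged from -19.1 to -1.89 points, and from -18.3 to -17.9 points when 1 library was left out. Neither test can pass a threshold with 2 libraries against 2.

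Counts of called regions changed more. Without the scaling of reads, 140 tiles were lower, and 1936 windows were higher and 8 lower. Against the median change, 1420 tiles lay above and 1412 below, and 44 windows above and 2 below (median change in windows 0.47 on the log odds scale). With the prior from all regions, which was run first and is kept for comparison, 0 tiles and 0 windows were called higher and 0 tiles lower. A minimum of 20 reads gave 20689 tiles higher among 54859. The one-sided test for lower values gave 0 tiles. Leaving out 1 library gave 0 to 24814 tiles higher and 0 to 72 lower, and 366 to 1234 windows higher and 0 to 7 lower. With 1 library left at a dose, it is assumed to vary like the pair at the other dose. Fitting all 9 libraries gave 880 windows higher and 1 lower, and leaving out 1 of the 4 from that fit gave 16000, 16016, 17960 and 19940 tiles higher and 27, 21, 74 and 54 lower, and 237, 223, 420 and 361 windows higher and 0 to 1 lower (0.2 µM replicates 1 and 2, then 10 µM replicates 1 and 2). The limma test on levels gave 365 windows higher and 1 lower. The causes of these shifts were not tested.

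With the replicate number as a block, 37271 tiles were higher and 69 lower, and 0 windows were higher, where the 10 named windows reached adjusted p-values of up to 0.100, and up to 0.426 over all their alternatives. The numbers only name the libraries, so this is not read as a weaker difference. The named tiles kept their calls under the block. Of the 10 named tiles that fell, 4 lost their call in the limma test on levels and 6 without one or the other 10 µM library, 3 in each case. Depth limits single tiles: at the median of 50.0 reads at 0.2 µM and 34.0 at 10 µM, only wide gaps could be called.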
